A study of Mus musculus with 2 samples.

Results

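The cells described here are donor CD4 T cells in which Csf2, the gene of granulocyte-macrophage colony-stimulating factor (GM-CSF), was detected, divided by whether Ifng, the gene of interferon-gamma (IFN-gamma), was detected in the same cell. They were selected on their own counts of unique molecular identifiers (UMIs), each UMI standing for 1 captured RNA molecule. A barcode was kept with 500 or more detected genes and at most 10% of its UMIs from mitochondrial genes, and it was placed in the CD4 class with 1 or more Cd4 UMIs and no UMI of Cd8a or Cd8b1. Of 5348 barcodes 5333 were kept and 1861 fell into the CD4 class. Among these, 123 cells had a UMI of both Csf2 and Ifng (6.61% of the class) and 151 had Csf2 without Ifng (8.11%), so that 274 cells are compared. The 562 cells with Ifng and no Csf2 (30.2%) serve as the reference, and 1025 cells had neither. These classes are called Csf2 with Ifng, Csf2 alone, Ifng alone and neither.

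GM-CSF is a cytokine that acts on monocytes, macrophages, neutrophils and dendritic cells through a receptor made of an alpha chain and the shared beta chain Csf2rb, and T cells make it after their antigen receptor is engaged. IFN-gamma is the defining cytokine of type 1 helper (Th1) cells, which depend on the transcription factor Tbx21, whereas Gata3 drives type 2 (Th2) cells that make Il4 and Il13. Both cytokines are made by donor T cells in graft-versus-host disease, an attack of grafted T cells on recipient organs such as the colon.

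All cells came from Balb/c mice that were given lethal irradiation and then B6 (C57BL/6) bone marrow (5000000 cells) together with splenocytes containing 800000 alpha beta T cells. The colons of 5 recipients were taken on day 21 and pooled, and donor T cells were sorted on H2-Kb, the donor class I molecule, and TCR beta. Droplet capture with 5' chemistry gave 1 RNA library, and part of its cDNA went into 1 library of T cell receptor (TCR) chains. No untreated mice, other time points or other tissues enter, and every class shares the same mice, irradiation and graft. Because the pool is 1 sample, cells are not replicates and no test between classes was made. All intervals given are 95% intervals that cover counting error only.

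The RNA library held 32772424 UMIs, with 2549 to 39138 per barcode, and 5133 of the kept barcodes were also found in the TCR contig table. The sample titles name CD4 T cells, but 2391 kept barcodes lacked Cd4 and showed Cd8a or Cd8b1, and these form a CD8 class. T cell identity was clear in both Csf2 classes, with a Cd3e UMI in 122 of 123 and 148 of 151 cells. Depth differed between the classes, and the share of cells with Ifng climbed with depth. The median cell had 5750 UMIs in Csf2 with Ifng, 4768 in Csf2 alone, 5366 in Ifng alone and 4417 in neither. Results are therefore also given with every cell thinned to 2000 UMIs, a depth that all kept cells reached, and in cells of 3000 to 8000 UMIs, in which the 2 Csf2 classes had medians of 4743 and 4500. Shares at 2000 UMIs keep the classes as set over all UMIs, unless the classes are said to be set or drawn at that depth. T cell RNA was also found in myeloid barcodes. Csf2 was present in 1 of 29 myeloid barcodes without a TRB chain (3.45%) and Ifng in 5 of 29 (17.2%, interval 5.85 to 35.8) at a median of 9221 UMIs. At 2000 UMIs Ifng was found in 2 of 29 of them (6.90%) and in 21.8% of the CD4 class. Cd4 was found in 5 and Cd8a in 6 of these 29 barcodes, and free RNA and doublets cannot be told apart from these values. The part of either, and of Ifng that was present but not captured, in the division of the cells was not tested. Cells with 2 or more productive TRB chains, a sign of doublets, made up 5.69% of Csf2 with Ifng and 1.99% of Csf2 alone.

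The 250 bases before the RefSeq start sites of the 2 class genes and of Ccl3 are shown. The former set the classes, and Ccl3 is the gene with the largest ratio below. They were read 5' to 3' on each gene's own strand from RefSeq on build GRCm38.p6, and capitals mark GGAAA on either strand (TTTCC where it lies on the other strand), the core letters of an NFAT site. Ifng lies at chr10:118440796-118441045 on the plus strand, Csf2 at chr11:54249900-54250149 on the minus strand and Ccl3 at chr11:83649379-83649628 on the minus strand. GENCODE places the Csf2 start 232 bases further into the gene, the Ccl3 start 23 bases further, and the Ifng start at the same base.
Ifng: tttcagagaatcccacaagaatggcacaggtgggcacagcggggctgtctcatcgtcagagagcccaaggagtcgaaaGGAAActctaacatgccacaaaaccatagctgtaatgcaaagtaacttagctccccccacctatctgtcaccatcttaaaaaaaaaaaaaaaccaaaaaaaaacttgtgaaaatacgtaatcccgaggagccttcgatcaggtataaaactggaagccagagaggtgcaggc
Csf2: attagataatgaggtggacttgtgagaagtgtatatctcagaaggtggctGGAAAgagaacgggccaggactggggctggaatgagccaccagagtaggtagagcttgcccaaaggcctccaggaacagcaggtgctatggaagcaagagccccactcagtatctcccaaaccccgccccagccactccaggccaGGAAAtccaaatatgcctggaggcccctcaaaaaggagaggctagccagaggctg
Ccl3: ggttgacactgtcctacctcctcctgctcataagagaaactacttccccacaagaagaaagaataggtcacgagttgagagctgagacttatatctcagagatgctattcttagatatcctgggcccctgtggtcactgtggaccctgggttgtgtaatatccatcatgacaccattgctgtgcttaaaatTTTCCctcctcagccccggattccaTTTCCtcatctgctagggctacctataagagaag
GGAAA was present 1 time before Ifng, 2 times before Csf2 and 2 times before Ccl3, but 55.6% of 32851 promoter windows of this length hold it. The AP-1 letters TGANTCA (6.75% of windows) and the T-box letters GGTGTGA (3.33%) were in none of the 3 windows, and the GATA letters AGATAA (9.99%) occurred 1 time before Csf2; both strands were searched for each, and none of these letter strings contains another. These matches describe the letters only.

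The Ifng share was higher in Csf2-positive than in Csf2-negative CD4 cells at each depth examined. Ifng was detected in 123 of 274 Csf2-positive cells (44.9%, interval 38.9 to 51.0) and in 562 of 1587 Csf2-negative cells (35.4%, 33.1 to 37.8). In quartiles of depth of the CD4 class the shares were 29.4% against 24.1% in the shallowest cells, 43.7% against 30.7% and 41.2% against 39.3% in the middle quartiles, and 58.3% against 48.6% in the deepest. Within each quartile the Csf2-positive share was the higher, but the intervals overlapped in every one. With the classes set on cells thinned to 1000 UMIs the shares were 19.9% and 12.7%, and at 2000 UMIs they were 30.2% (23.8 to 37.2) and 20.8% (18.9 to 22.8). At 3000 UMIs, with 174 shallower cells left out, they were 34.5% and 27.7%. After thinning to 1000, 2000 or 3000 UMIs most Csf2-positive cells had no Ifng UMI, whereas 58.3% of those in the deepest quartile had one.

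**Figure D1:**
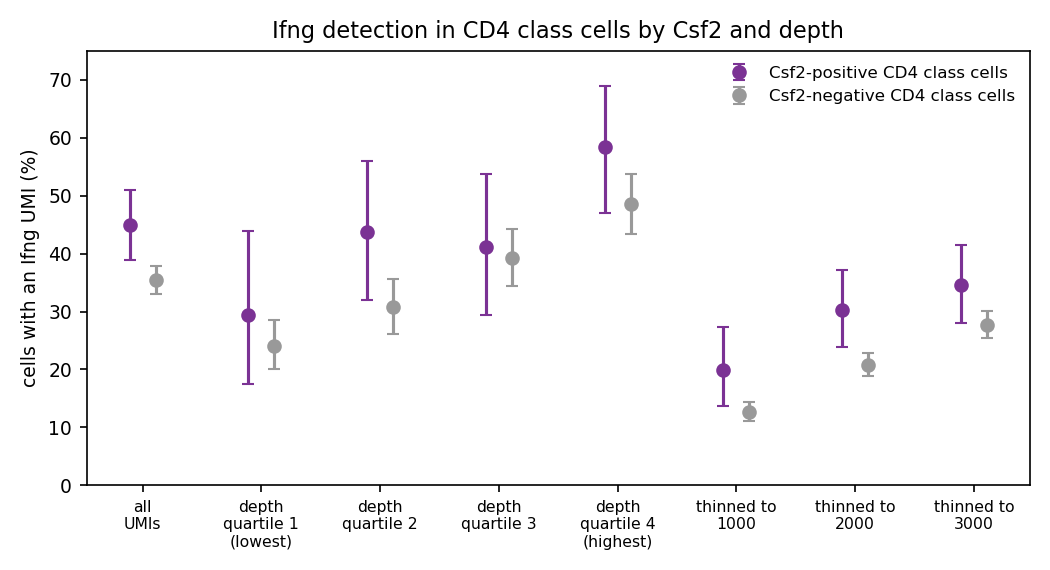
Share of CD4 class cells with an Ifng UMI (y axis, percent) among Csf2-positive cells (purple) and Csf2-negative cells (grey), over all UMIs, in quartiles of depth, and after thinning to 1000, 2000 and 3000 UMIs per cell (x axis); bars are Clopper-Pearson 95% intervals. The Csf2-positive point lies above the Csf2-negative one in each pair, 44.9% against 35.4% over all UMIs. Among the quartiles both are lowest in the shallowest and highest in the deepest.

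The level of Csf2 was slightly higher with Ifng than without. Csf2 was at 9.69 UMIs per 10000 in Csf2 with Ifng and 8.35 in Csf2 alone (ratio 1.16, interval 1.05 to 1.28), with a median of 3 and 2 UMIs per cell and a highest cell of 70 and 48. The Ifng share was 44.0% in the 84 cells with 1 Csf2 UMI, 42.9% in the 91 cells with 2 to 4, 41.7% in the 48 cells with 5 to 9 and 52.9% in the 51 cells with 10 or more (38.5 to 67.1). The last share lay above the others within overlapping intervals. Ifng itself was higher per cell when Csf2 was present, at 7.37 UMIs per 10000 against 4.09 in Ifng alone (1.80, 1.64 to 1.97). Of the Ifng UMIs of Csf2 with Ifng, 19.3% came from 1 cell with 133 UMIs, and without the top cell of each class the ratio was 1.49. Cells with 5 or more Ifng UMIs were 35.0% of Csf2 with Ifng and 14.8% of Ifng alone. These levels belong to the genes that set the classes and are given as description.

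Few genes were past 2-fold between the 2 kinds of Csf2-positive cell. Levels are sums of UMIs of a class per 10000, and the 4299 genes with 50 or more UMIs over both classes were compared. Of these, 72 (1.67%) were 2-fold or more higher in Csf2 with Ifng and 32 (0.744%) were 2-fold or more lower, with a median log2 ratio of 0.10. The 12 genes named on the higher side were the chemokine genes Ccl3 and Ccl4, the heat shock gene Hspa1a, the homing receptor gene Ccr7, the transcription factor gene Egr2, Lta, Jaml, and Tpx2, Birc5, Cit, Pimreg and Hist1h2ae, which belong to dividing cells. The 12 named on the lower side were Calca, Abcb1b, Socs2, Il4, Dusp10, St6gal1, Rab4a, Gzma, Gzmb, Klk8, Neurl3 and Ramp3. Among the 12 genes with the largest ratio on each side, 9 of the higher and 9 of the lower were still past 2-fold in cells of 3000 to 8000 UMIs, and 8 and 7 with classes drawn at 2000 UMIs. Without cycling cells 5 of the higher and 9 of the lower remained past 2-fold.

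**Figure D2:**
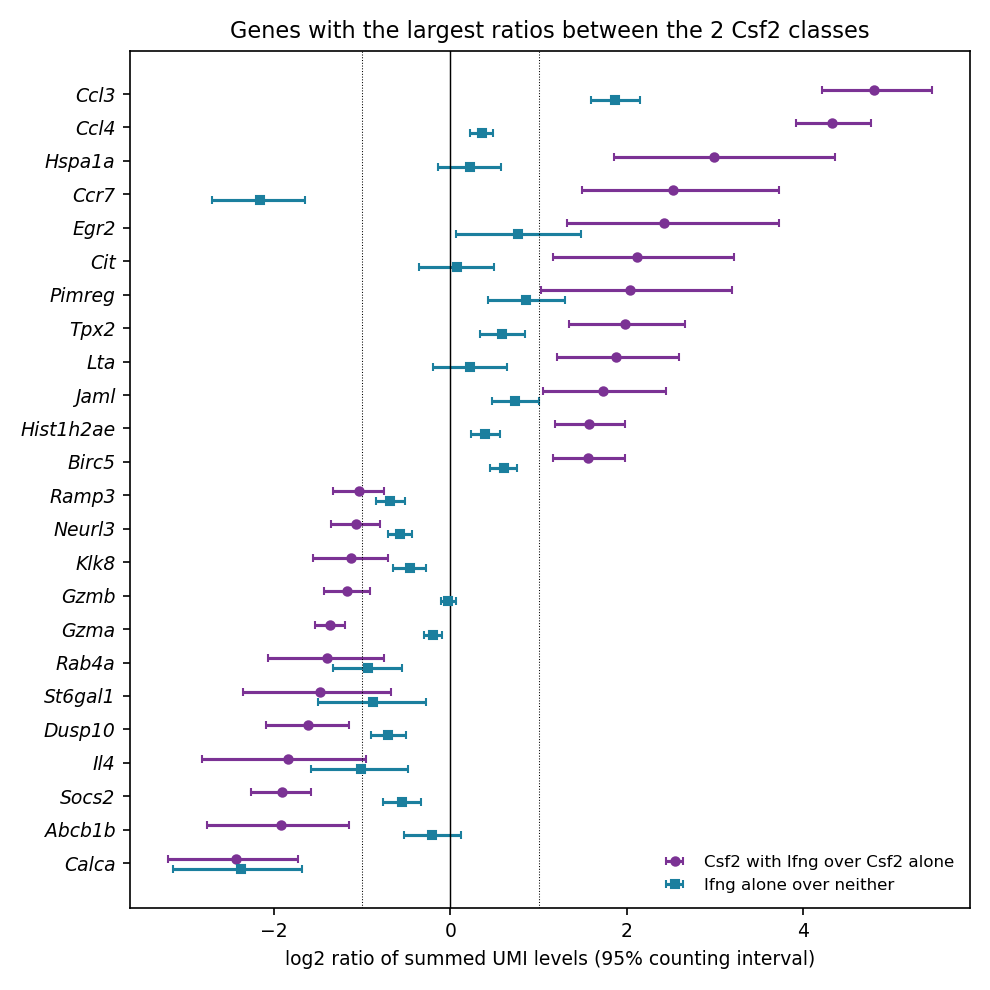
Log2 ratio of summed UMI levels (x axis) for the 24 genes that differed most, 12 each way, between Csf2 with Ifng and Csf2 alone (y axis, purple circles), with the same genes in Ifng alone over neither (blue squares); bars are 95% counting intervals and dotted lines mark 2-fold. Ccl3 and Ccl4 lead at 4.80 and 4.33 and Calca is lowest at -2.43 in the first comparison, and Ccr7 lies on opposite sides of 0 in the 2 comparisons.

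Chemokine genes gave the largest differences. Ccl3 and Ccl4 encode MIP-1alpha and MIP-1beta, which attract T cells and monocytes. Ccl3 was at 7.51 UMIs per 10000 in Csf2 with Ifng, 0.269 in Csf2 alone, 1.001 in Ifng alone and 0.274 in neither. Ccl4 was at 11.0, 0.549, 2.40 and 1.88 in the same order. Csf2 with Ifng thus stood above the 3 other classes for both genes, and Csf2 alone lay at or below the level of neither. The ratio over Csf2 alone was 27.9 for Ccl3 (18.6 to 43.9) and 20.1 for Ccl4 (15.1 to 27.3). A single cell held 39.8% of the Ccl3 UMIs and 28.7% of the Ccl4 UMIs of Csf2 with Ifng, so the shares of cells are given too. Ccl4 was found in 40 of 123 and 14 of 151 cells, and at 2000 UMIs in 24.4% and 6.62%. For Ccl3 the shares at 2000 UMIs were 13.01% and 3.31%. In cells of 3000 to 8000 UMIs the log2 ratios of Ccl3 and Ccl4 were 5.20 and 4.93, against 4.80 and 4.33 in all cells. With classes set at 2000 UMIs they were 4.34 and 3.58, so that the Ccl4 ratio was over 1.5 times smaller there. CD8 class cells held much of both RNAs, with Ccl4 in 40.9% of them at 2000 UMIs, and the part of free RNA from them in the lower shares was not tested.

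Of the other chemokines, Xcl1, which attracts cross-presenting dendritic cells, was at 4.42 UMIs per 10000 in Csf2 with Ifng and 1.97 in Csf2 alone (2.24, 1.88 to 2.69). Its share of cells at 2000 UMIs differed little, at 17.1% and 13.2%. Ccl5, which attracts effector T cells, was at 10.6 and 5.93 (1.79, 1.61 to 1.99), both below the 25.9 of Ifng alone and the 36.9 of neither. The direction for Ccl5 was not stable, with a log2 ratio of 0.84 in all cells, -0.28 with classes set at 2000 UMIs, -0.56 when positive meant 2 or more UMIs and -0.14 with 1 cell per clonotype. The fifth, Ccl1, the ligand of Ccr8, was at a ratio of 1.09 (0.985 to 1.21). Of 11 chemokine genes listed, 5 had enough UMIs, 3 of the 5 were 2-fold or more higher and none was lower, with a median log2 ratio of 1.17. With 1 cell per clonotype this median was 0.21, while Ccl3 and Ccl4 kept log2 ratios of 4.66 and 3.95.

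Lta and Tnf were higher in Csf2 with Ifng by summed level, and other genes of the tumour necrosis factor (TNF) family differed in direction. Lta, the gene of lymphotoxin alpha, was at 0.985 UMIs per 10000 in Csf2 with Ifng and 0.269 in Csf2 alone (3.67, 2.32 to 6.01), and it was found at 2000 UMIs in 12.2% and 1.32% of cells. Tnf was at 1.01 and 0.336 (2.996, 1.97 to 4.68), in 13.01% and 9.27% of cells at 2000 UMIs. The Lta difference thus shows in the number of cells, whereas the Tnf shares at 2000 UMIs had overlapping intervals. Tnfsf14, which encodes LIGHT and is named after its values were seen, was at a ratio of 2.35 (1.44 to 3.95). Fasl, the death ligand, was at 1.49 and 1.95 UMIs per 10000 (0.76, 0.61 to 0.96), with a log2 ratio of 0.12 when the classes were drawn at 2000 UMIs. Cd40lg, the signal by which CD4 cells help B cells and dendritic cells, was found over all UMIs in 56.9% of Csf2 with Ifng and 62.9% of Csf2 alone, and after thinning to 2000 UMIs in 23.6% (16.4 to 32.1) and 43.7% (35.7 to 52.0). Its summed level was 2.07 against 2.43 per 10000 (0.85, 0.70 to 1.04), and its log2 ratio of -0.23 became 0.23 with classes drawn at 2000 UMIs, so its direction was not settled. Areg, the gene of the growth factor amphiregulin, was at 6.14 and 5.15 (1.19, 1.05 to 1.35), but its log2 ratio of 0.25 was -0.35 with 1 cell per clonotype. Jaml, an adhesion molecule of activated T cells, was at 3.31 (2.08 to 5.45). Of 30 listed cytokine genes 16 had enough UMIs, 3 were 2-fold or more higher and 2 lower, and the median log2 ratio was -0.23. Il2, Il10, Il17a and Il22 had too few UMIs in the 2 classes to compare: 9 and 9 UMIs of Il2, 2 and 0 of Il10, 16 and 1 of Il17a, and 4 and 4 of Il22.

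Early genes of TCR signalling were moderately higher in Csf2 with Ifng by summed level. Egr2, a transcription factor induced by TCR signals, was at 45 UMIs in 16 cells of Csf2 with Ifng and 8 UMIs in 6 cells of Csf2 alone (5.38, 2.51 to 13.2). Dusp2, a nuclear phosphatase that restrains mitogen-activated kinases, was at 4.98 and 2.12 UMIs per 10000 (2.35, 1.98 to 2.80), and its share at 2000 UMIs was 46.3% and 29.8%. Egr1 was at 1.99 and 1.09 (1.83, 1.43 to 2.37), and Nr4a2, an orphan receptor of the same early response, at 5.20 and 3.72 (1.40, 1.21 to 1.61). Shares at 2000 UMIs were 6.50% and 1.99% for Egr2, 17.9% and 14.6% for Egr1 and 46.3% and 44.4% for Nr4a2. The intervals of these shares overlapped for each gene, for Dusp2 narrowly (37.3 to 55.6 and 22.6 to 37.8). Of 16 listed early genes 14 had enough UMIs, 2 were 2-fold or more higher and none lower, and the median log2 ratio was 0.38 against 0.10 for all genes. The median was 0.43 in cells of 3000 to 8000 UMIs. Genes that tissue dissociation can induce overlap with this list. Of 12 such genes with enough UMIs, Hspa1a (58 and 7 UMIs, 56.9% of the former in 1 cell) and Zfp36 (2.13, 1.81 to 2.51) were 2-fold or more higher and none was 2-fold lower. Their median log2 ratio was 0.20, and their summed level was 72.4 UMIs per 10000 in Csf2 with Ifng and 60.8 in Csf2 alone. The part of dissociation in these values was not tested.

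Genes of mitosis were higher in Csf2 with Ifng, and this difference moved with cell depth. Of 16 listed cycling genes 15 had enough UMIs, 9 were 2-fold or more higher and none lower, with a median log2 ratio of 1.05. Tpx2, a spindle assembly factor, was at 1.15 and 0.291 UMIs per 10000 (3.93, 2.54 to 6.30), Birc5, which encodes survivin of the chromosomal passenger complex, at 2.28 and 0.773 (2.95, 2.24 to 3.93), and Mki67, the Ki-67 gene, at 3.26 and 1.40 (2.33, 1.88 to 2.89). Outside the list, the mitotic genes Cit (4.35) and Pimreg (4.11) and the histone gene Hist1h2ae (2.97) were also among the 12 largest. Cells with 3 or more cycling genes made up 34.1% of Csf2 with Ifng and 15.2% of Csf2 alone, and 21.1% and 12.6% at 2000 UMIs. Cycling Csf2-positive cells had a median of 11398 UMIs and the others 4451. With classes set at 2000 UMIs the list median was 0.06, and in cells of 3000 to 8000 UMIs it was -0.30, with Mki67 at -1.145 and Birc5 at -0.98. The direction for these genes is therefore not stable once depth is matched.

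Genes of the Th1 programme leaned higher, while the interval of its defining factor held 1. Tbx21 was at 1.08 and 0.896 UMIs per 10000 (1.21, 0.89 to 1.64), in 20.3% and 16.6% of cells at 2000 UMIs. The genes of the interleukin-18 receptor, Il18r1 (1.47, 1.14 to 1.89) and Il18rap (1.39, 1.08 to 1.78), were higher. Nkg7, a granule protein of cytotoxic and Th1 cells, was at 15.9 and 12.01 UMIs per 10000 (1.32, 1.22 to 1.43) and was found at 2000 UMIs in 87.8% of Csf2 with Ifng and 70.2% of Csf2 alone, against 79.7% of Ifng alone and 69.9% of neither. Cxcr6, a receptor of tissue T cells, was at 0.85 (0.73 to 0.98). Of 12 listed genes 10 had enough UMIs, none was past 2-fold either way, and the median log2 ratio was 0.40. Among inhibitory receptors, Lag3 was at 1.92 and 1.33 UMIs per 10000 (1.44, 1.13 to 1.83) and Cd160 at 1.63 and 0.773 (2.11, 1.57 to 2.84). Nt5e, which encodes the adenosine-forming enzyme CD73, was lower (0.40, 0.23 to 0.66), so that 1 of the 10 measured genes of that list was 2-fold or more higher and 1 lower.

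Th2 genes and Socs2 were higher in Csf2 alone. Gata3 was at 2.21 UMIs per 10000 in Csf2 alone and 1.22 in Csf2 with Ifng, above 0.506 in Ifng alone and 0.995 in neither. The ratio of the 2 Csf2 classes was 0.55 (0.44 to 0.70). Gata3 was found at 2000 UMIs in 31.1% and 20.3% of cells, with overlapping intervals. Il4 had 48 UMIs in 19 cells of Csf2 alone and 14 UMIs in 8 cells of Csf2 with Ifng (0.28, 0.14 to 0.51). Il13 had 93 and 36 UMIs (0.37, 0.24 to 0.55), but 4.64% and 4.88% of cells at 2000 UMIs, and its log2 ratio of -1.43 became 0.58 in cells of 3000 to 8000 UMIs. The Il13 difference therefore lay in a few cells rich in its UMIs. Of 10 listed Th2 genes 5 had enough UMIs, none was 2-fold higher and 2 were 2-fold or more lower in Csf2 with Ifng. Their median log2 ratio was -0.85, and it was -0.06 in cells of 3000 to 8000 UMIs, in which Gata3 alone stayed at -0.87 and Il4 at -2.04. With the classes set at 2000 UMIs Gata3 was at -0.17.

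Socs2 encodes a suppressor of cytokine signalling that is induced through STAT5, the factor downstream of interleukin-2, interleukin-7 and GM-CSF receptors. It was at 3.75 UMIs per 10000 in Csf2 alone, 0.996 in Csf2 with Ifng, 0.726 in Ifng alone and 1.06 in neither. Csf2 alone was the class that stood apart, with a ratio of Csf2 with Ifng to it of 0.27 (0.21 to 0.33). At 2000 UMIs Socs2 was found in 33.1% (25.7 to 41.2) of Csf2 alone cells and in 12.2%, 11.4% and 13.3% of the other classes, and in 5.27% of CD8 class cells. Its log2 ratio lay at -1.63 in cells of 3000 to 8000 UMIs and -1.91 in all cells. Cish, another STAT5-induced suppressor, was at 3.96 and 2.76 UMIs per 10000 in the opposite order (1.44, 1.22 to 1.70). Of 9 listed genes of the GM-CSF receptor and its signalling 6 had enough UMIs, 1 was 2-fold or more lower (Socs2) and none higher, with a median log2 ratio of 0.24. Csf2rb had 7 UMIs in 1 cell and 1 UMI in 1 cell.

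**Figure D3:**
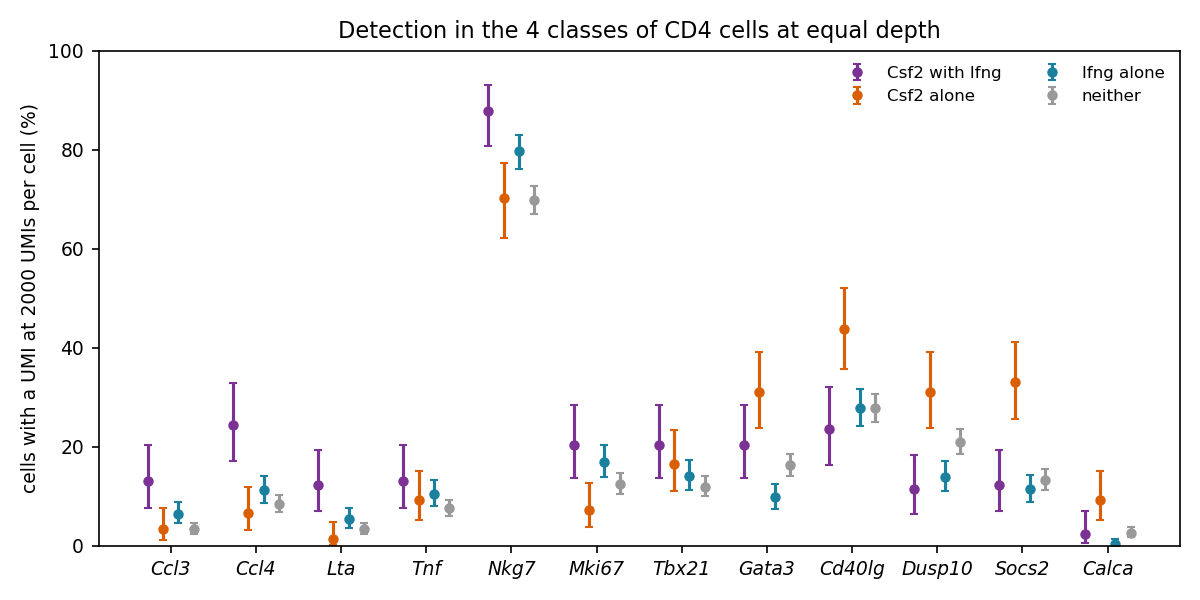
Share of cells with a UMI of each gene (y axis, percent) at 2000 UMIs per cell in the 4 classes of CD4 cells, for 12 genes named in the text (x axis). The classes were set over all UMIs, and bars are Clopper-Pearson 95% intervals. Ccl3, Ccl4 and Lta are most frequent in Csf2 with Ifng, Socs2 (33.1%), Cd40lg (43.7%) and Dusp10 (31.1%) are most frequent in Csf2 alone, and Tbx21 differs little between the 2.

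Several further genes were higher in Csf2 alone than in Csf2 with Ifng. Calca, which encodes calcitonin and the neuropeptide CGRP, had 103 UMIs in 18 cells of Csf2 alone and 20 UMIs in 5 cells of Csf2 with Ifng (0.19, 0.11 to 0.30). Ramp3, a partner of receptors for the calcitonin peptide family, was at 3.37 and 1.64 UMIs per 10000 (0.49, 0.40 to 0.59). Dusp10, a phosphatase of stress-activated kinases, was at 1.70 and 0.557 (0.33, 0.23 to 0.45) and was found at 2000 UMIs in 31.1% and 11.4% of cells. Neurl3, a ubiquitin ligase, was found in 49.7% and 33.3%, and Klk8, a secreted serine protease, in 29.8% and 17.1%. The intervals of the Neurl3 and Klk8 shares overlapped between the classes. Abcb1b, a drug efflux pump (0.26, 0.15 to 0.45), Rab4a, a GTPase of endosome recycling (0.38, 0.24 to 0.59), and St6gal1, a sialyltransferase (0.36, 0.20 to 0.63), were lower in Csf2 with Ifng as well. The summed levels of these 8 genes in Csf2 alone also lay above those of Ifng alone and neither. For Dusp10 the latter were 0.80 and 1.30, for Ramp3 1.19 and 1.90, and for Calca 0.051 and 0.263. Il7r, the interleukin-7 receptor, was at 2.74 in Csf2 with Ifng and 4.19 in Csf2 alone (0.65, 0.56 to 0.77) but highest in neither, at 5.40, and Il4ra at a ratio of 0.66 (0.50 to 0.86). The log2 ratios of Calca, Dusp10, Abcb1b and Rab4a were -2.03, -1.52, -1.49 and -1.44 in cells of 3000 to 8000 UMIs.

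Granzyme genes did not move together between the 2 Csf2 classes. Gzmb, the main killing protease of cytotoxic granules, was at 1.95 and 4.38 UMIs per 10000 (0.45, 0.37 to 0.53), and Ifng alone and neither were at 5.21 and 5.30. Csf2 with Ifng was thus the low class by summed level. At 2000 UMIs Gzmb was found in 15.5% of its cells and in 26.5% of Csf2 alone, with overlapping intervals. Gzma was at 4.36 and 11.2 (0.39, 0.34 to 0.44), but 1 cell held 52.0% of the 1003 UMIs of Csf2 alone, and without cells that had a UMI of Il4, Il5, Il13 or Il1rl1 its log2 ratio of -1.37 became 0.27. Gzmc, named after its values were seen, had 107 UMIs in Csf2 with Ifng and 81 in Csf2 alone (1.26, 0.94 to 1.71), an interval that holds 1. Cd7 was higher (3.03, 1.88 to 5.08) at levels well below those of Ifng alone. In the 8 measured genes of 15 on the cytotoxic list, 1 was 2-fold or more higher and 2 lower.

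Genes of the IFN-gamma response and the usual regulators of Csf2 differed little. Ifngr1, a chain of the IFN-gamma receptor, was at 7.31 and 9.02 UMIs per 10000 (0.81, 0.73 to 0.90). Of the response genes, the proteasome subunit Psmb9 (1.26, 1.04 to 1.54) and the GTPase Igtp (2.12, 1.19 to 3.94) were higher and Gbp2 was at 0.44, though 61.5% of its UMIs in Csf2 alone came from 1 cell and its log2 ratio was 0.03 without the top cell of each class. In this list 12 of 18 genes were measured, with 1 past 2-fold each way and a median log2 ratio of 0.13. Bhlhe40, a transcription factor that T cells need for GM-CSF, was at 16.0 and 15.3 UMIs per 10000 (1.05, 0.97 to 1.13). Batf was at 1.33 (1.14 to 1.56) and Stat5a at 1.43 (1.03 to 1.98). None of the 12 measured genes of 15 helper factors was past 2-fold, with a median of 0.08. NF-kappaB targets (15 of 15 measured), costimulatory receptors (8 of 9), cytokine receptors (13 of 17), AP-1 factors (8 of 9) and glycolysis genes (14 of 16) had no gene past 2-fold either way, with medians of 0.06, 0.11, -0.14, -0.09 and 0.27. Ccr7, a receptor for lymph node homing, was at 54 UMIs in 13 cells against 9 UMIs in 7 cells (5.74, 2.81 to 13.2), and Cxcr4 at 1.91 (1.29 to 2.87). Foxp3, the regulatory T cell factor, had 4 UMIs and 1 UMI in the same order.

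**Figure D4:**
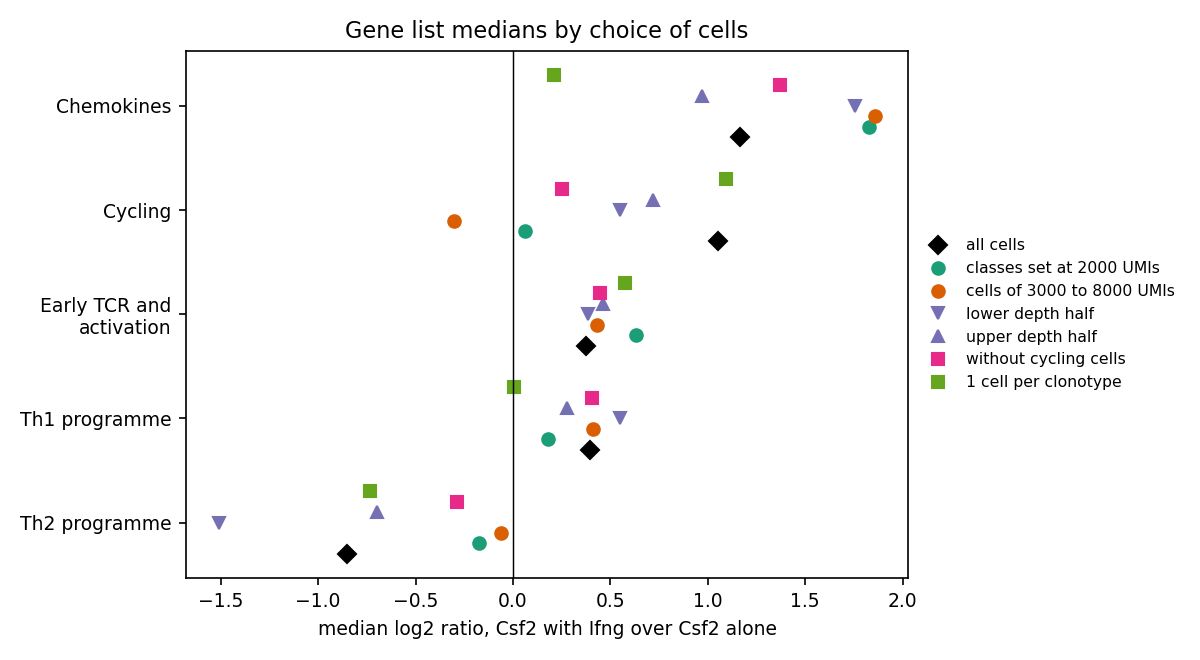
Median log2 ratio of Csf2 with Ifng over Csf2 alone (x axis) for 5 gene lists (y axis) over all cells (black diamonds) and for other choices of cells (coloured symbols). The chemokine median stays above 0 in each choice shown, the cycling median drops from 1.05 to -0.30 in cells of 3000 to 8000 UMIs, and the Th2 median ranges from -1.51 to -0.06.

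Set against the reference, early TCR genes were higher in Csf2 with Ifng than in Ifng alone, and chemokine genes split. This comparison shares its first class with the one against Csf2 alone. Of 6822 genes with enough UMIs, 125 (1.83%) were 2-fold or more higher in Csf2 with Ifng and 156 (2.29%) lower. Of 16 early TCR genes 6 were 2-fold or more higher and none lower (median log2 ratio 0.85), and of 7 measured chemokine genes 4 were higher and 3 lower. Xcl1 was at 4.42 UMIs per 10000 against 0.345 (12.8, 10.5 to 15.7) and Ccl1 at 8.82 against 0.736 (11.99, 10.4 to 13.8). Ccl3 and Ccl4 were higher here too, at ratios of 7.497 (6.604 to 8.52) and 4.59 (4.19 to 5.02). Penk, which encodes the opioid peptide precursor proenkephalin, was at 8.65 against 2.17 (3.99, 3.62 to 4.404), Nrp1, a semaphorin coreceptor, at 0.493 against 0.0562 (8.76, 5.12 to 15.5), and Tnfrsf9, the costimulatory receptor 4-1BB, at 4.35 against 1.46 (2.97, 2.61 to 3.39). Tnfrsf9 was the 1 gene past 2-fold of 8 measured costimulatory receptors, whose median log2 ratio was -0.015. Egr3, an early TCR-induced factor, was at 10.2 (5.63 to 19.6) with 58.5% of its UMIs in 1 cell. Gata3 was higher than in Ifng alone (2.41, 1.89 to 3.06) and Socs2 was at 1.37 (1.07 to 1.74). In Csf2 alone, Xcl1 (1.97 UMIs per 10000), Ccl1 (8.10), Penk (10.9), Nrp1 (0.459) and Tnfrsf9 (3.53) also stood above Ifng alone. So did Gata3 (2.21) and Socs2 (3.75), whereas Ccl3 (0.269) and Ccl4 (0.549) lay below it and Egr3 (0.045) near it.

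Th17 genes were lower in Csf2 with Ifng than in Ifng alone, and cytotoxic genes split. Il22, an epithelial repair cytokine, had 4 UMIs in 2 of 123 cells against 196 in 17 of 562 (0.08, 0.02 to 0.21). A single cell held 34.2% of the 196. At 2000 UMIs Il22 was found in 0.81% (0.02 to 4.45) and 1.60% (0.73 to 3.02) of cells, with overlapping intervals. Il10 had 2 against 95 UMIs (0.08, 0.01 to 0.31). The interleukin-1 receptor gene Il1r1 (0.22, 0.07 to 0.53) was lower as well. Of 9 measured Th17 genes 6 were 2-fold or more lower, with a median log2 ratio of -1.67. Of 11 measured cytotoxic genes 4 were 2-fold or more higher and 4 lower. Gzmc (6.79, 4.93 to 9.43) and Klrk1, the gene of the receptor NKG2D (5.68, 4.29 to 7.55), were among the higher and Gzmk (0.19, 0.11 to 0.32) and Gzmb (0.37, 0.32 to 0.44) among the lower. Of the 107 Gzmc UMIs of Csf2 with Ifng, 43.9% came from 1 cell. At 2000 UMIs Gzmc was found in 4.88% (1.81 to 10.3) and 2.49% (1.37 to 4.14) of cells, with overlapping intervals. Tbx21 was higher (1.46, 1.15 to 1.84). Eomes, a factor of cytotoxic CD4 cells (0.24, 0.08 to 0.59), the Th1 homing receptor Cxcr3 (0.36, 0.26 to 0.49) and Ccl5 (0.41, 0.38 to 0.44) were lower too. Ctla4, an inhibitory receptor, was at 3.79 against 7.53 UMIs per 10000 (0.50, 0.45 to 0.56) and Itgb7, an integrin chain of gut homing, at 2.08 against 3.92 (0.53, 0.45 to 0.62). At 2000 UMIs Cxcr3 was found in 4.07% and 22.9% of cells and Itgb7 in 26.0% and 52.1%.

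The same Ifng contrast was also made in the CD4 cells without Csf2, which share no cell with the 2 Csf2 classes, a comparison added after the values were seen. Of 8161 genes, 19 (0.233%) were 2-fold or more higher in Ifng alone than in neither and 50 (0.613%) lower. Of the 12 top genes of Csf2 with Ifng, 8 had an interval above 1 here and 1 below it, and of the 12 lowest, 10 had an interval below 1 and none above. Of all 8161 genes 10.4% had an interval above 1 and 6.43% below it. Past 2-fold on the same side were 1 of the 12 higher genes and 2 of the 12 lower ones. The 8 genes with an interval above 1 included Birc5, Tpx2, Pimreg and Hist1h2ae of dividing cells. Depth was not matched here, with medians of 5366 UMIs in Ifng alone and 4417 in neither. Cells with 3 or more cycling genes made up 29.5% and 17.6% of these classes. Calca had nearly the same ratio in both settings, 0.19 (0.11 to 0.31) here and 0.19 (0.11 to 0.30) in Csf2-positive cells. Gata3 was at 0.51 (0.43 to 0.60) here and 0.55 (0.44 to 0.70) in Csf2-positive cells. Il4 was at 0.49 (0.34 to 0.72) here against 0.28 (0.14 to 0.51), with overlapping intervals. Dusp10 was closer to 1 here, at 0.61 (0.53 to 0.70) against 0.33 (0.23 to 0.45). The next ratios were also closer to 1 than in Csf2-positive cells. Dusp10 and these genes were named for their large ratios in Csf2-positive cells, a choice that by itself favours ratios closer to 1 here. The part of that choice was not tested. Of the UMIs of Csf2 with Ifng, 1 cell held 39.8% for Ccl3 and 38.0% for Lta, and the intervals cover counting error only. Ccl3 was at 3.65 (3.02 to 4.44), Ccl4 at 1.28 (1.17 to 1.40), Lta at 1.17 (0.88 to 1.56) and Socs2 at 0.68 (0.59 to 0.79), and each of these intervals lies apart from the corresponding one of the Csf2-positive cells. Gzmb was at 0.98 (0.93 to 1.04) and Ccr7 at 0.22 (0.15 to 0.32), which for Ccr7 is the opposite direction. With 1 pooled sample the differences between the 2 settings were not tested.

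Read from the side of single genes, the Ifng share of Csf2-positive cells ranged widely. Ccl3, Ccl4, Lta, Socs2 and Calca were named for their ratios between these same cells, so their shares restate that comparison. Single marker genes were read at 2000 UMIs here, and Csf2 and Ifng over all UMIs. Of the 43 Csf2-positive cells with a Ccl3 or Ccl4 UMI at 2000 UMIs, 31 had Ifng (72.1%, 56.3 to 84.7). Among the 231 without, the share was 39.8% (33.5 to 46.4). Median depths were 4752 and 5402 UMIs. With a Tnf or Lta UMI the share was 62.8% (46.7 to 77.0) and without it 41.6% (35.1 to 48.2). The cells with Ccl3 or Ccl4 had the larger Ifng share at the lower median depth. Of the 65 cells with Socs2, 15 had Ifng (23.1%, 13.5 to 35.2), against 51.7% (44.7 to 58.6) of the 209 without. The cells with Socs2 were also the shallower, at median depths of 4636 and 5509 UMIs, and the part of depth was not tested. For Calca the shares were 3 of 17 (17.6%, 3.799 to 43.4) and 46.7%, and for Gata3 34.7% (23.9 to 46.9) and 48.5% (41.4 to 55.6). Tbx21 separated the cells little, 50% (35.5 to 64.5) with and 43.8% (37.1 to 50.5) without. Cells with 3 or more cycling genes had Ifng in 64.6% and the others in 38.8%, at the depths given above.

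Clones were shared across the classes. A clonotype, set by the productive TRA and TRB CDR3 sequences with their segments, was found for 60 cells of Csf2 with Ifng (45 clonotypes) and 54 of Csf2 alone (48 clonotypes). Cells of expanded clonotypes, those with 2 or more kept cells, were 70.0% (56.8 to 81.2) and 51.9% (37.8 to 65.7) of these, and 77.9% (72.6 to 82.6) in Ifng alone. The 9 clonotypes present in both Csf2 classes were 20% of the 45 and 18.8% of the 48. With Ifng alone, Csf2 with Ifng shared 16 clonotypes, 35.6% of its own and 11.5% of the 139 of Ifng alone, and Csf2 alone shared 10, 20.8% of its own and 7.19% of the 139. Of the 13 clonotypes with 2 or more Csf2-positive cells, 9 held both kinds, 2 only Csf2 with Ifng and 2 only Csf2 alone. One clonotype thus could hold cells of either class.

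The TRB CDR3 sequences of clones 1 to 5 are given because these lineages held both kinds of Csf2-positive cell and also cells of the other 2 classes. They are read 5' to 3' from the deposited contigs, and capitals mark GGACTGG, the run that the 3 of these 5 clones with segment TRBJ2-4 share outside their common end.
clone 1: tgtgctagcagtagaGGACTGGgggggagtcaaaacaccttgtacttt
clone 2: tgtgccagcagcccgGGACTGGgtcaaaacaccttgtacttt
clone 3: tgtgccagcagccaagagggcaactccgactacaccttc
clone 4: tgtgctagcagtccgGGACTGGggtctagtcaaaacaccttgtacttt
clone 5: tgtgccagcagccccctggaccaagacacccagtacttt
The run was present in 49 of 328 CD4 class clonotypes (14.9%, 11.3 to 19.3), so it is common. Clone 1 (TRBV17, 57 kept cells) had 5 cells in Csf2 with Ifng, 2 in Csf2 alone, 13 in Ifng alone and 18 in neither. Clone 2 (TRBV4, 54 kept cells) had 5, 1, 15 and 19. Clone 3 (TRBV5) had 3, 2, 2 and 6, and clones 4 (TRBV17) and 5 (TRBV3) had 2 cells in Csf2 with Ifng and 1 in Csf2 alone each. Presence in all 4 classes was the reason for giving these 5 clones. Clones 7, 8, 11 and 13 held both kinds of Csf2-positive cell and no cell of the other 2 classes. Clone 6 (TRBV19) had 3 cells in Csf2 alone, 2 in neither and none with Ifng, which with 5 cells says little. Leaving out clones 1 and 2 gave log2 ratios of 4.84 for Ccl3, 4.41 for Ccl4 and -1.85 for Socs2.

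**Figure D5:**
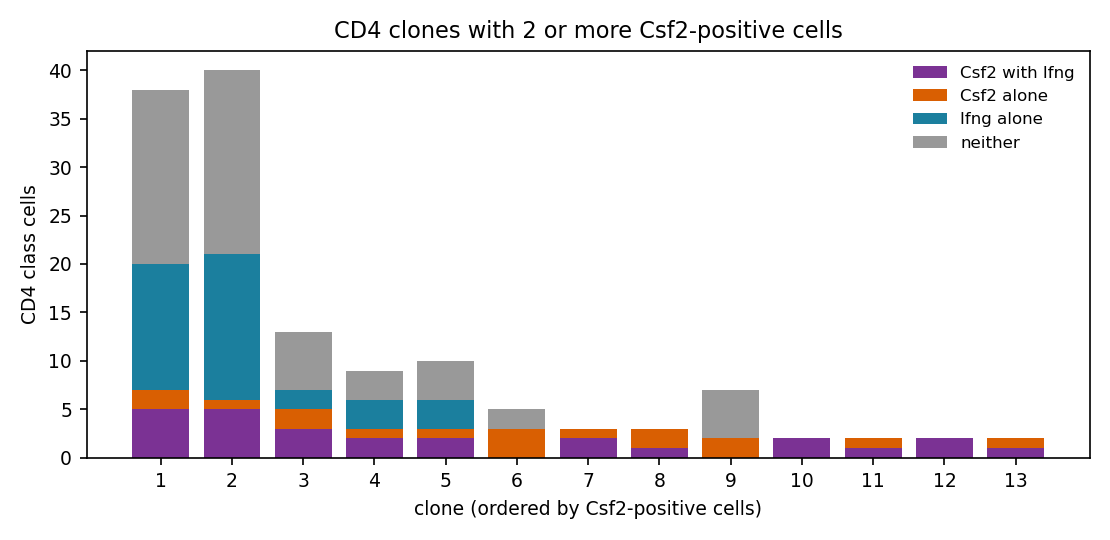
Number of CD4 class cells (y axis) in each of the 13 clones with 2 or more Csf2-positive cells (x axis, ordered by Csf2-positive cells), stacked by class. Clones 1 and 2 are the tallest bars and hold cells of all 4 classes, and clones 6 and 9 hold Csf2 alone but no Csf2 with Ifng cells.

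Markers of other cell types were low in both Csf2 classes. Over 11 myeloid genes the summed level was 0.653 UMIs per 10000 in Csf2 with Ifng and 1.12 in Csf2 alone, with Adgre1 and Ms4a7 at 0 in both and Csf1r and C1qb also at 0 in the former. Lyz2 made up 40 and 76 of these UMIs, and 92.1% of the 76 came from 1 cell. Each class held 1 of the 53 barcodes with 4 or more myeloid genes. Neutrophil and mast cell genes had 0 and 1 UMI over 6 genes and B and plasma cell genes 1 and 0 over 6. Epithelial genes had 8 and 11 UMIs over 5 genes, with Krt19 and Vil1 at 0 in both, and stromal genes 32 and 28 over 6, with the collagen genes and Cdh5 at 0. Without the myeloid barcodes the log2 ratios of Ccl3, Ccl4 and Socs2 were 4.80, 4.35 and -1.92.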

How the data were processed

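The matrix holds whole-number UMI counts per gene and barcode, raw as the authors deposited them. Cell Ranger and build mm10 are named in the submitters' processing notes, and a version was not given in the sources used here. Chain, segment and CDR3 calls come from the deposited contigs.

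Counts were summed over the cells of a class and divided by the UMIs of all genes of the class, per 10000. Intervals at 95% are conditional binomial for ratios, exact Poisson for levels and Clopper-Pearson for shares. Such intervals take UMIs as independent, which cells rich in 1 RNA break. Genes entered with 50 or more UMIs over both classes. Left out were the class-setting genes, predicted models, mitochondrial and ribosomal genes, immunoglobulin genes and TCR segments. Thinning drew 2000 UMIs per cell without replacement with a fixed seed. No doublet caller was run. Barcodes with 4 or more of 11 myeloid genes were called myeloid, and cells with 3 or more cycling genes cycling. Cells with exactly 1 productive TRB chain and 1 or more productive TRA chains were given a clonotype.

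Named genes are the 12 highest and 12 lowest per comparison by the interval bound nearest 1, found in 10% or more of the cells of the higher class, up to 4 members of each of 28 lists with the largest bounds (where every interval of a list held 1, the 2 members with most UMIs), and a fixed set of 15 cytokine, receptor and factor genes; some of these genes are not reported here. The cell classes, gene lists and rules were chosen with earlier results of these data known. Promoters are RefSeq windows, of which 3 of 4 genes looked up had an entry. The ratio step was tested on simulated Poisson counts, in which 95.6% of 4299 intervals of the first comparison held the true ratio; no spread between cells was simulated. Tools were Python 3.11.15 with pandas 2.3.3, scipy 1.17.1, matplotlib 3.10.9 and numpy 2.4.6. Other depths, cell filters, weights and definitions of the classes were tried as alternatives.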

Additional observations from a re-analysis of the deposited data

How the results depend on the processing

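No paired analysis was possible because the pool gave 1 RNA library and no result comes from a test. The Ifng share of Csf2-positive CD4 cells, 44.9% as reported, was 30.2% with classes set at 2000 UMIs, 35.8% in cells at or below the median depth, 54.0% above it, 35.8% when positive meant 2 or more UMIs and 38.8% without cycling cells.

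Genes 2-fold or more higher than in Csf2 alone, 72 as reported, numbered 41 with classes at 2000 UMIs, 38 in cells of 3000 to 8000 UMIs, 23 in the shallower cells, 34 without cycling cells, 111 with equal weight per cell, 269 with a minimum of 20 UMIs and 1109 with no minimum. Those lower, 32 as reported, numbered 19 in cells of 3000 to 8000 UMIs, 10 in the shallower cells, 14 without cycling cells, 129 with a minimum of 20 UMIs and 1071 with none. Fewer cells leave fewer genes above the minimum. Against Ifng alone, the 125 higher became 73 in the shallower cells, 70 with 1 cell per clonotype, 274 with a minimum of 20 UMIs and 2089 with none; the 156 lower became 349 and 464 with these minimums and 256 without the top cell of each gene.

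The chemokine median log2 ratio of 1.17 was 1.83 with classes at 2000 UMIs, 1.86 in cells of 3000 to 8000 UMIs, 1.76 in the shallower cells and 0.21 with 1 cell per clonotype. The cycling median of 1.05 was 0.061 with classes at 2000 UMIs, -0.30 in cells of 3000 to 8000 UMIs and 0.25 without cycling cells. The Th2 median of -0.85 was -0.17 with classes at 2000 UMIs, -0.059 in cells of 3000 to 8000 UMIs, -1.51 in the shallower cells and -0.25 without cells with type 2 genes. The median of the Tfh, stem-like and memory list, 0.37, was -0.057 without cells of 2 or more TRB chains and -0.25 without cells with type 2 genes.

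Named genes past 2-fold changed direction as follows. In cells of 3000 to 8000 UMIs the log2 ratios over Csf2 alone were -0.98 for Birc5, -0.008 for Ccna2, -1.145 for Mki67, -1.49 for Pimreg, 0.14 for Gbp2 and 0.58 for Il13. In the shallower cells they were -0.77 for Cit, -1.19 for Hist1h2ae, -0.19 for Mki67 and 0.81 for Gbp2. With classes at 2000 UMIs they were -0.15 for Pimreg and 0.16 for Il13, and Il17a over Ifng alone was 0.092. Without cycling cells Hist1h2ae was at -1.46, Tpx2 at -1.04 and Il13 at 0.60. Gbp2 was at 0.46 with 1 cell per clonotype, 0.11 without myeloid barcodes and 0.028 without the top cell. Cd7 was at -0.98 with 2 or more UMIs for positive, Gzma at 0.27 without type 2 cells, and Lyz2 over Ifng alone at -0.47 with 1 cell per clonotype. Among named genes under 2-fold, signs also turned at 2000 UMIs for Ccl5 (-0.28), Psmb9 (-0.11), Fasl (0.12) and Cd40lg (0.23), with 1 cell per clonotype for Ccl5 (-0.14), Areg (-0.35) and Bhlhe40 (-0.23), with 2 or more UMIs for positive for Ccl5 (-0.56), and above the median depth for Cxcr6 (0.09). Others are not listed. Beyond the settings that define depth, these causes were not tested. Counting intervals set the limit: with 123 and 151 cells from 1 pool, no difference has a replicate check. Leaving out the 2 leading clones was chosen after seeing the data.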
